A study of Mesocricetus auratus with 21 samples.

Results

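Tdrd1, Tdrd9 and Rnf17 (also called Tdrd4) are germ cell genes whose products carry Tudor domains, and their transcript counts were followed in whole golden hamster testes. The 3 genes were taken by name from the 22285 rows of the testis count table, and their identifiers are ENSMAUG00000012164, ENSMAUG00000020617 and ENSMAUG00000004788. The identifiers could be paired with symbols only because the study's table of genes changed at 9 days after birth (dpp) lists them. The 9 dpp comparison is therefore not independent evidence about these genes.

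The study compared Mov10l1+/+ males (wild type) with Mov10l1-/- males (KO) at 0, 9, 13 and 21 dpp and in adults, to learn when germ cells fail without the helicase MOV10L1. The knockout removes exon 20 of Mov10l1 by CRISPR-Cas9, and the line was bred from a single founder female with outbred hamsters. There were 21 libraries, 2 per genotype and age except for 3 wild types at 9 dpp. The adult wild types were 65 and 23 weeks old and the adult KO animals 63 and 53 weeks. Both KO libraries of 9 dpp carry the same animal code, so their spread may not be that between animals. Replicates elsewhere carry separate codes, but some libraries share the first part of a code. At 0 dpp both KO libraries do. At 9 dpp 2 of the 3 wild types do, and the other wild type shares its part with the KO libraries. At 13 dpp each wild type shares its part with a KO library, and at 21 dpp a single wild type does. What that part marks is not given in the sources used here. RNA was depleted of ribosomal RNA, and libraries of 0 and 9 dpp were read as 75 nt single ends and the later ones as 150 nt paired ends, so 9 and 13 dpp were not tested against each other.

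PIWI proteins loaded with piRNAs silence retrotransposons in germ cells, and arginines of PIWI proteins are methylated and bound by Tudor domains. TDRD1 is a scaffold of the granules in which piRNAs are made, and TDRD9 joins a Tudor domain to a DEAH-box helicase. RNF17 joins a RING finger to Tudor domains and is needed for spermatid development in the mouse. MOV10L1 acts upstream, in the making of piRNA intermediates.

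Library totals ran from 3550217 counts (wild type, 13 dpp, replicate 2) to 77527451 (wild type, 9 dpp, replicate 1). All 63 values of the 3 genes were whole numbers, the lowest being 5 counts, and the 3 genes passed the filter on low counts in every comparison. Levels are given as CPM, counts brought to a common library size by TMM over all 21 libraries. Transcript lengths were not used, so levels are not compared between genes. Mov10l1 itself, counted over all its exons, was lower in KO libraries at each age, with log2 fold changes of -2.70 at 0 dpp, -4.36 at 9 dpp, -6.77 at 13 dpp, -10.02 at 21 dpp and -4.79 in adults, of which that at 13 dpp was not called (edgeR adjusted p = 0.0154). Calls were made with the quasi-likelihood test of edgeR where the p adjusted by Benjamini-Hochberg over the whole table was below 0.01.

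In the newborn testis, none of the 3 genes was called between genotypes. The 2 KO libraries of this age share the first part of their animal code, and the wild types do not. Tdrd1 stood at 95.3 and 88.5 CPM in the wild types and at 98.2 and 78.6 CPM in the KO libraries, which overlap. Tdrd9 stood at 50.6 and 43.6 CPM in wild types and 64.2 and 47.8 CPM in KO libraries, which overlap too. Rnf17 was at 119 and 79.0 CPM in wild types and at 175 and 139 CPM in KO libraries, so both KO values lay above both wild types. Its log2 fold change was 0.66 ± 0.17 (SE, n = 2 and 2), with an edgeR adjusted p of 0.0357, against -0.05 ± 0.12 for Tdrd1 (adjusted p = 0.852) and 0.25 ± 0.14 for Tdrd9 (adjusted p = 0.320). At this age 1.91% of the 16341 genes tested were called. With 2 libraries against 2, random labels alone separate the genotypes with a probability of 0.333, and separations over the whole table were not counted. By unadjusted p below 0.05, 1 of the 3 genes (Rnf17) differed, as did 3652 of the 16341 genes tested. DESeq2 likewise called Rnf17 alone of the 3, and 696 of 16016 genes.

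At 9 dpp all 3 genes were lower in the KO libraries and 2 of the 3 were called, against 0.412% of 15776 genes, a count that is read no further because this contrast is how the names are known. Tdrd1 was at 25.9, 25.3 and 23.3 CPM in wild types and at 8.75 and 9.92 CPM in KO libraries, 2.68-fold lower (log2 fold change -1.42 ± 0.09, n = 3 and 2, edgeR adjusted p = 8.5e-04). Rnf17 was at 25.8, 25.0 and 19.8 CPM in wild types and at 5.30 and 6.02 CPM in KO libraries, 4.19-fold lower (log2 fold change -2.07 ± 0.13, edgeR adjusted p = 8.5e-04). Tdrd9 was at 19.6, 15.4 and 13.9 CPM in wild types and at 6.89 and 8.13 CPM in KO libraries, with a log2 fold change of -1.13 ± 0.15 and an edgeR adjusted p of 0.0133. For each gene every KO library lay below every wild type. How many genes of the whole table separate between genotypes was not counted at any age. With the 2 KO libraries, which share an animal code, summed into 1, no gene of the table was called by edgeR, and Tdrd1 and Rnf17 each had an adjusted p of 0.0199.

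At 13 dpp, when the wild-type testis holds spermatogonia but no meiotic cells, all 3 genes had lower values in the KO libraries, which stood far apart from each other. Tdrd1 was at 33.5 and 52.3 CPM in wild types and at 6.13 and 0.905 CPM in KO libraries. Tdrd9 was at 10.8 and 26.9 CPM in wild types and at 2.74 and 0.549 CPM in KO libraries. Rnf17 was at 50.5 and 50.0 CPM in wild types and at 4.55 and 0.775 CPM in KO libraries. In each case KO replicate 2 was the lowest library, and no KO library reached a wild type. The log2 fold changes of -3.78 ± 0.80, -3.71 ± 0.79 and -4.42 ± 0.73 (SE, n = 2 and 2) were not called by edgeR (adjusted p = 0.0741, 0.0767 and 0.0366). In this comparison edgeR called 0.121% of 13254 genes. All 3 genes had an unadjusted p below 0.05, as did 1344 of the genes tested. DESeq2 called 267 of 16176 genes, all 3 among them. Same-numbered libraries of the genotypes share part of their title code at this age alone. A fit blocked on that number called all 3 by edgeR (-4.14 ± 0.44, -3.80 ± 0.50 and -4.75 ± 0.43, adjusted p = 1.0e-18, 3.6e-12 and 6.9e-25), with 490 genes called in place of 16. With 2 libraries per genotype and a block term, little spread is left to estimate for each gene. The p values of that fit therefore rest mainly on spread pooled over genes, not on spread between animals.

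By 21 dpp the 3 transcripts had nearly gone from the KO testis. Tdrd1 was at 457 and 254 CPM in wild types and at 0.773 and 0.646 CPM in KO libraries, 597-fold lower (log2 fold change -9.22 ± 0.44, n = 2 and 2, edgeR adjusted p = 8.2e-06). Tdrd9 was at 103 and 80.1 CPM in wild types and at 0.322 and 0.235 CPM in KO libraries, the latter from 5 and 8 counts, 395-fold lower (log2 fold change -8.62 ± 0.31, edgeR adjusted p = 4.4e-06). Rnf17 was at 292 and 240.1 CPM in wild types and at 0.966 and 0.763 CPM in KO libraries, 368-fold lower (log2 fold change -8.52 ± 0.30, edgeR adjusted p = 4.4e-06). All 3 were called, as were 38.1% of the 14849 genes tested, and 56, 83 and 90 genes fell further than Tdrd1, Tdrd9 and Rnf17.

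In adults all 3 remained lower in KO libraries, and by amounts that differed from gene to gene. Tdrd1 was at 358.1 and 358.0 CPM in wild types and at 2.87 and 2.34 CPM in KO libraries, 159-fold lower (log2 fold change -7.31 ± 0.17, n = 2 and 2, edgeR adjusted p = 1.2e-07). Tdrd9 was at 144 and 143 CPM in wild types and at 2.94 and 2.40 CPM in KO libraries, 62.1-fold lower (log2 fold change -5.96 ± 0.16, edgeR adjusted p = 1.7e-07). Rnf17 was at 197 and 196 CPM in wild types and at 10.2 and 8.22 CPM in KO libraries, 24.6-fold lower (log2 fold change -4.62 ± 0.16, edgeR adjusted p = 3.7e-07). Called genes made up 74.4% of the 15766 tested, so a call at this age is common.

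**Figure D1:**
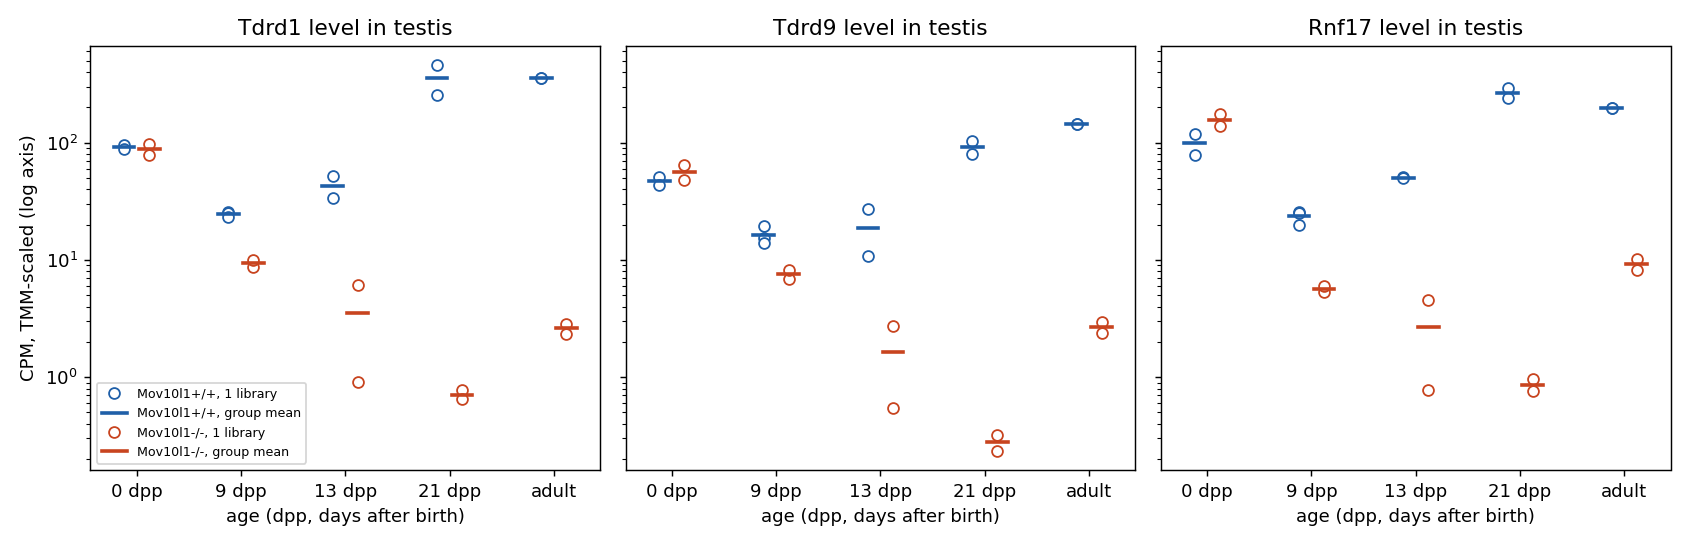
Level of Tdrd1, Tdrd9 and Rnf17 in CPM (log axis) against age, with 1 circle per library and a bar at each group mean, in blue for Mov10l1+/+ and red for Mov10l1-/-. At 0 dpp the genotypes overlap for Tdrd1 and Tdrd9, while both KO libraries lie above the wild types for Rnf17, and the KO libraries lie below every wild type from 9 dpp on, lowest at 21 dpp.

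**Figure D2:**
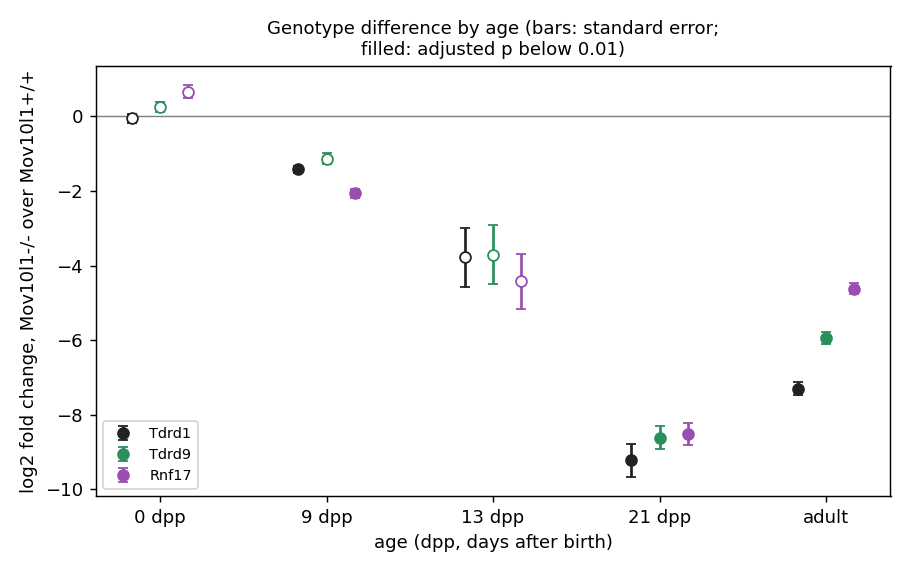
Log2 fold change of KO over wild type for the 3 genes at each age, with standard errors, filled where the adjusted p was below 0.01. The largest falls are at 21 dpp, and the wide bars at 13 dpp belong to differences that were not called.

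Markers of other cells and of germ cells also differed between genotypes. The summed level of 10 germ cell markers (such as Dazl and Ddx4) was 318 to 388 CPM in wild types and 405 to 533 CPM in KO libraries at 0 dpp, 113 to 144 against 50.3 to 55.2 CPM at 9 dpp, 200 to 292 against 13.7 to 22.9 CPM at 13 dpp, 608 to 815 against 9.34 to 12.6 CPM at 21 dpp and 1225 to 1323 against 50.1 to 50.5 CPM in adults. The adult wild-type sum was mostly Ddx4 (661 CPM) and Ddx25 (497 CPM), and the list did not move as one in adults, where 4 of 10 were called lower (Ddx4, Ddx25, Dazl and Taf4b) and Zbtb16, of undifferentiated spermatogonia, was called higher (log2 fold change 1.83, edgeR adjusted p = 9.9e-04). At 21 dpp 9 of 10 were called lower. Over all genes tested 38.1% were called at that age and 74.4% in adults. Zbtb16 kept 3.54 CPM in KO libraries of 21 dpp, against 6.79 CPM in wild types, while Ddx4 was at 0.255 against 301 CPM. At 13 dpp Zbtb16 was at 4.48 against 12.4 CPM, although the paper's staining found KO tubules nearly empty of ZBTB16-positive cells. Whether Zbtb16 RNA follows germ cells in the KO testis was not tested. The sum of 12 meiotic genes (such as Sycp1 and Stag3) was 1638 to 2201 CPM in wild types and 12.6 to 13.7 CPM in KO libraries at 21 dpp. Markers of somatic cells (13 genes, such as Clu of Sertoli cells) summed to 2193 to 2198 CPM in wild types and 7210 to 7375 CPM in KO libraries at that age, and at 0 dpp to 2299 to 2682 against 1659 to 1818 CPM. Clu alone made up 4773 CPM of the 21 dpp KO sum and was not called there (edgeR adjusted p = 0.0103), while 6 of 13 were called higher and 1, Tagln, lower (log2 fold change -1.04), and Des was at -0.01. No listed marker was at 0 in every library of a group. In whole testis, fewer germ cells and less RNA per germ cell cannot be told apart, and the part of cell makeup in the differences of Tdrd1, Tdrd9 and Rnf17 was not tested.

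From 0 to 9 dpp all 3 genes fell in wild types, with log2 fold changes of -1.91 ± 0.08 for Tdrd1, -1.55 ± 0.14 for Tdrd9 and -2.09 ± 0.17 for Rnf17 (edgeR adjusted p = 3.6e-07, 1.7e-05 and 8.7e-06), in a step where 52.6% of genes were called. Over the same step they fell further in KO animals, by -3.23 ± 0.12, -2.89 ± 0.15 and -4.78 ± 0.13 (edgeR adjusted p = 6.8e-06, 1.3e-05 and 6.0e-06), where 61.5% were called. The difference between these steps was itself called for all 3, at -1.35 ± 0.16, -1.36 ± 0.24 and -2.71 ± 0.26 (edgeR interaction, adjusted p = 0.00264, 0.00982 and 0.00134), against 1.47% of 16892 genes. This interaction holds the 9 dpp contrast through which the 3 genes could be named, so it is not independent evidence about them and its count is read no further. Leaving out 1 library, the call was lost in 3 of 9 fits for Tdrd1 (adjusted p up to 0.0233), in 8 of 9 for Tdrd9 (up to 0.0637) and in 2 of 9 for Rnf17 (up to 0.0140), and without either of the 9 dpp KO libraries, which share an animal code, edgeR called 0 or 1 gene of the whole table.

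From 13 to 21 dpp, when meiosis begins, Tdrd1 rose in wild types by 3.21 ± 0.45 and Rnf17 by 2.56 ± 0.34 on the log2 scale (edgeR adjusted p = 0.00289 and 0.00222), in a step where 4.15% of genes were called. Tdrd9 had a log2 fold change of 2.45 ± 0.47 and was not called (adjusted p = 0.0112). In KO animals none of the 3 was called by edgeR (-2.26 ± 0.81, -2.50 ± 0.81 and -1.57 ± 0.75, adjusted p = 0.0714, 0.0541 and 0.158), while 9.52% of genes were. An unadjusted p below 0.05 was met by 2 of the 3 and by 5474 of 14020 genes. DESeq2 called none of the 3 and 2250 of 13771 genes. The interaction over this step gave -5.46 ± 1.02, -4.93 ± 1.02 and -4.11 ± 0.85 and was not called by edgeR (adjusted p = 0.0118, 0.0183 and 0.0186). DESeq2 called all 3, among 971 of 14511 genes. All 3 had an unadjusted p below 0.05, as did 3562 of 14952 genes. In that interaction 2.15% of genes were called.

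Between 21 dpp and adulthood the wild types showed no called change of the 3 genes (log2 fold changes 0.14 ± 0.32, 0.78 ± 0.21 and -0.30 ± 0.23, edgeR adjusted p = 0.712, 0.0131 and 0.270), although 51.8% of genes were called. Of the 3, DESeq2 called Tdrd9 alone, among 7432 of 15477 genes. Tdrd9 was also the 1 of the 3 with an unadjusted p below 0.05, as were 10933 of 15287 genes. In KO animals all 3 rose, Tdrd1 by 3.71-fold, Tdrd9 by 9.86-fold and Rnf17 by 10.9-fold (log2 fold changes 1.89 ± 0.31, 3.30 ± 0.37 and 3.45 ± 0.26, edgeR adjusted p = 0.00317, 7.4e-04 and 1.9e-04), in a step where 29.6% of genes were called. The call for Tdrd1 was lost in 3 of 4 fits that left out 1 library (adjusted p up to 0.0198). The interaction was called for all 3 (1.89 ± 0.46, 2.66 ± 0.36 and 3.89 ± 0.30, adjusted p = 0.00657, 3.2e-04 and 1.4e-05) with 40.7% of 16420 genes. The germ cell markers, in the same KO libraries, rose as a whole list, with 10 of 10 called higher in that step and a median log2 fold change of 3.04 beside -0.02 over all genes. The step and interaction comparisons share libraries with the comparisons at single ages.

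Libraries of 0 and 9 dpp differ in read layout from the later ones, so age and layout cannot be told apart in an order across that split. In wild types the order of levels was adult, 21 dpp, 0 dpp, 13 dpp and 9 dpp for Tdrd1 (358.0, 356, 91.9, 42.9 and 24.8 CPM) and for Tdrd9 (144, 91.4, 47.1, 18.8 and 16.3 CPM). For Rnf17 21 dpp came first (266 CPM), before adults (197), 0 dpp (98.8), 13 dpp (50.3) and 9 dpp (23.5). The adult and 21 dpp levels of Tdrd1 did not separate, nor did the 13 and 9 dpp levels of Tdrd9. By library totals in place of TMM, Tdrd9 was at 131 and 60.5 CPM at 21 dpp and at 114 and 116 CPM in adults, which overlap. The wild-type change from 21 dpp to adults was called by edgeR for none of the 3 genes. In KO animals 0 dpp was highest for all 3 (88.4, 56.0 and 157 CPM) and 21 dpp lowest (0.709, 0.278 and 0.865 CPM). The 13 dpp KO libraries overlapped those of adult KO animals for Tdrd1 and Tdrd9, and those of 21 dpp for Rnf17.

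Ratios within a library compare the 3 genes mostly without the library's scale. The 0.5 CPM added to each level lets that scale in where levels are low, as in KO libraries of 21 dpp. The log2 ratio of Tdrd9 to Tdrd1 was higher in KO than in wild-type libraries at 5 of 5 ages, by 0.30 at 0 dpp, 0.30 at 9 dpp, 0.54 at 13 dpp, 1.27 at 21 dpp and 1.35 in adults, with overlap at 13 dpp alone. The value at 21 dpp depends on the 0.5 CPM added to each level, above both KO levels of Tdrd9, and was 0.81 with 0.1 CPM added and 0.55 with nothing added, while that of 13 dpp was 0.41 and 0.36 and the other ages moved by less than 0.01. Averaged over ages the difference was 0.75, with a two-sided exact permutation p of 3.9e-04 (12960 relabelings within ages, smallest possible p 7.7e-05) and an adjusted p of 0.00231 over the 6 ratios compared. These relabelings treat the KO libraries of 9 dpp as separate animals and take no account of the title codes shared at 13 dpp. Code parts shared at 0, 9 and 21 dpp were not taken into account in any of these tests. How many other pairs of genes differ as much was not counted, so the p values do not show that this pair stands apart. Between genotypes 38.1% of genes tested were called at 21 dpp and 74.4% in adults. With the KO libraries of 9 dpp averaged into 1 the exact permutation p was 7.7e-04 (adjusted p = 0.00463). With 13 dpp labels exchanged only within a shared code, a choice made after seeing the data, the exact permutation p was 2.3e-04 (adjusted p = 0.00139). Tdrd9 to Ddx4, the gene of the germ cell helicase VASA, differed by 0.71 (exact permutation p = 0.0113, adjusted p = 0.0340), being higher in KO libraries at 4 of 5 ages and lower at 13 dpp. Its adjusted p did not stay below 0.05 with 0.1 CPM added or without adults. KO levels of Ddx4 at 21 dpp, 0.129 and 0.382 CPM, were also below the 0.5 CPM added.

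The other 4 ratios were not called over all ages. Rnf17 to Tdrd1 differed by 0.53 on average (exact permutation p = 0.141, adjusted p = 0.282) and turned with age, being higher in KO libraries by 0.75 at 0 dpp, lower by amounts of -0.59 and -0.53 at 9 and 13 dpp, and higher by 0.54 and 2.51 at 21 dpp and in adults. Rnf17 to Tdrd9 differed by -0.22 (exact permutation p = 0.410, adjusted p = 0.492), Rnf17 to Ddx4 by 0.49 (exact permutation p = 0.201, adjusted p = 0.302) and Tdrd1 to Ddx4 by -0.04 (exact permutation p = 0.797, adjusted p = 0.797). At 21 dpp the difference in Rnf17 to Tdrd9 was -0.73 with 0.5 CPM added and 0.097 with nothing added. A single age with 2 libraries against 2 cannot give an exact permutation p below 0.333, so no age was tested alone.

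**Figure D3:**
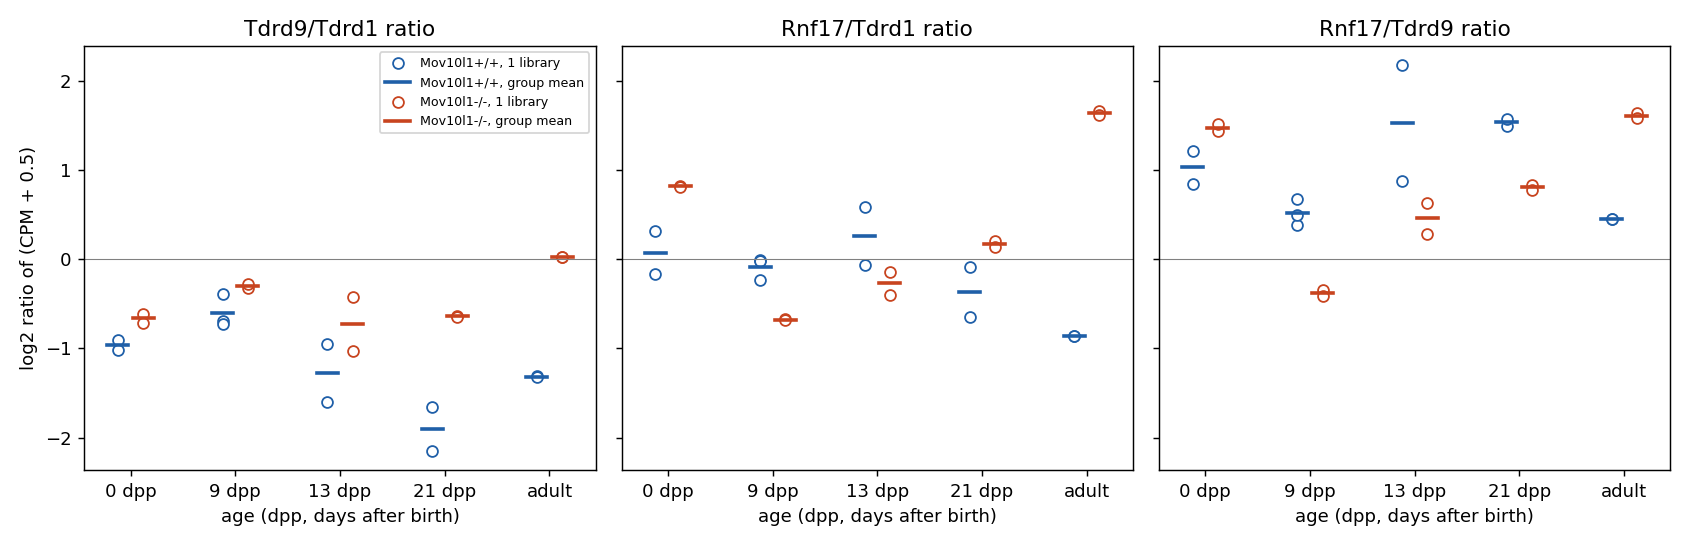
Log2 ratio of (CPM + 0.5) between pairs of the 3 genes against age, 1 circle per library, bars at group means, blue for Mov10l1+/+ and red for Mov10l1-/-. Tdrd9 to Tdrd1 is higher in KO libraries at each age on average, while the ratios with Rnf17 change side between ages. The side of Rnf17 to Tdrd9 at 21 dpp depends on the 0.5 CPM added.

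The other Tudor-domain genes on hand, Tdrd5, Tdrd7 and Tdrd12, were not called at 0, 9 or 13 dpp. All 3 were called lower at 21 dpp and in adults, where 38.1% and 74.4% of all genes tested were called. The median log2 fold change of Tdrd5, Tdrd7 and Tdrd12 was already -1.35 at 9 dpp and -2.37 at 13 dpp. At 9 dpp the KO libraries lay below the wild types for all 3. At 13 dpp this held for Tdrd5 and Tdrd12, while Tdrd7 overlapped. All 3 are listed in the study's table of genes changed at 9 dpp. At 21 dpp their log2 fold changes were -5.35, -2.63 and -7.53, and in adults -4.06, -3.99 and -5.92. Tdrd12 stood at 144 and 98.2 CPM in wild types and at 0.966 and 0.646 CPM in KO libraries at 21 dpp. Tdrd7 kept 18.9 and 17.7 CPM in KO libraries at that age, against 123 and 70.0 CPM in wild types. At 0 dpp the KO libraries of Tdrd5 and Tdrd12 lay above the wild types as those of Rnf17 did, at log2 fold changes of 0.69 and 0.64 (edgeR adjusted p = 0.0348 and 0.0480). An unadjusted p below 0.05 was also met by both, as by 3652 of 16341 genes.

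Among 13 further genes of the piRNA pathway, counting Mov10l1, 1 was called lower at 0 dpp (Mov10l1 itself), 6 at 9 dpp, 1 of 12 tested at 13 dpp, and 12 of 12 tested at 21 dpp and in adults, and none was called higher. Over all genes tested 1.91%, 0.412%, 0.121%, 38.1% and 74.4% were called at 0, 9, 13 and 21 dpp and in adults, in either direction. The list's median log2 fold change was 0.08, -1.61, -3.61, -8.20 and -4.96 at these ages, beside 0.02, 0.00, 0.02, 0.04 and 0.14 over all genes tested. The 6 at 9 dpp were Mov10l1, Ddx4, Tex15, Piwil2 (a PIWI protein of fetal and postnatal germ cells), Mael and Morc1, and these 6 names too are listed in the study's table for that age. The call at 13 dpp was Gpat2 (-6.28 ± 0.64, edgeR adjusted p = 0.00975). In adults the PIWI genes tested ranged from -8.63 for Piwil1 to -1.17 for Piwil4, and Tdrd1, Tdrd9 and Rnf17 lay between them. Piwil3 was not among the 12 tested there, at 0.185 CPM in wild types and 0.158 CPM in KO libraries.

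**Figure D4:**
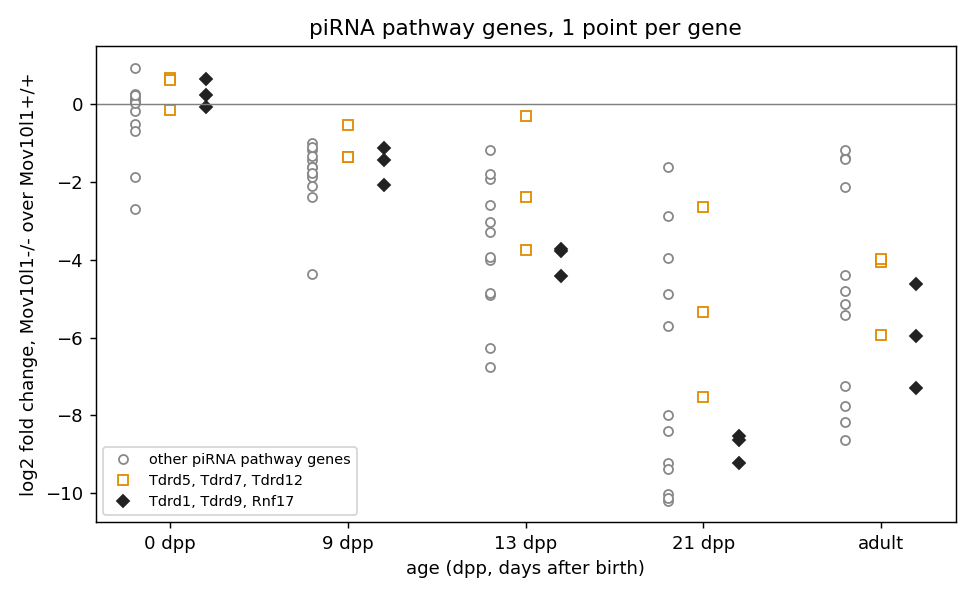
Log2 fold change of KO over wild type by age, 1 point per gene, for 13 piRNA pathway genes (circles), Tdrd5, Tdrd7 and Tdrd12 (squares) and Tdrd1, Tdrd9 and Rnf17 (diamonds). At 0 dpp the points lie on both sides of 0, and at 21 dpp all lie below it, the diamonds between -9.22 and -8.52.

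Likeness to other genes was measured as the root mean square difference of centred log2(CPM + 0.5) over the 21 libraries, among 14404 genes whose mean level reached 1 CPM. Nearest to Tdrd1 were Adad2 (0.49), Tdrd9 (0.54), Ddx4 (0.56), Tdrd12 (0.69) and Rnf17 (0.70). Nearest to Tdrd9 were Adad2 (0.41), Rpl10l (0.49), Topaz1 (0.52), Tdrd1 (0.54) and Tdrd12 (0.54). Nearest to Rnf17 were Stag3 (0.61), Topaz1 (0.62), Rpl10l (0.62), Tdrd9 (0.65) and Piwil2 (0.65). The median gene lay at 2.88, 2.54 and 2.72 from the 3 genes. Only 1003 of the compared genes have a symbol, drawn from the study's own tables of changed genes, so genes that move with these are more often named, and the libraries share the germ cell and somatic differences given above.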

How the data were processed

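Whole testis RNA-seq libraries of golden hamsters were analysed. The authors aligned reads to mesAur1 with STAR 2.7.3a and counted exons of Ensembl genes with featureCounts 2.0.0. Multimapping and overlapping reads were counted as fractions, so the authors deposited estimated counts, not normalized. Reads of near-identical genes are split by this. Counts were rounded to whole numbers. No column belonged to another series. Samples were grouped by their titles.

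Symbols of 1045 genes came from the study's supplementary tables. The members and gene lists were chosen with earlier results of these data known. Genes named are the 3 members, the listed genes and the 5 nearest genes with a symbol. Each comparison was fitted alone with edgeR 4.0.16 (R 4.3.3), with TMM scaling, filterByExpr, the quasi-likelihood test and Benjamini-Hochberg adjustment, at 0.01. SE is the log2 fold change divided by the root of F. CPM used TMM over 21 libraries. Ratios used a pseudocount of 0.5 CPM and an exact permutation test of genotype labels within ages, in Python. The alternatives were DESeq2 1.42.0, other scalings and filters, single libraries left out, a replicate block and joint fits. On simulated counts with 200 genes changed 4-fold, edgeR recovered 200 at 9 dpp (15627 genes) and 127 at 13 dpp (13069 genes). The simulation gave all genes a common spread, changed only genes above 5 CPM and took the 9 dpp KO libraries as separate animals. Recovery in the real data may therefore be lower.

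Titles number replicates in both genotypes. Same-numbered libraries correlated at 0.0712 (0 dpp), -0.0373 and -0.172 (9 dpp), 0.117 (13 dpp), -0.192 (21 dpp) and 0.0916 (adults), and no source says what a number marks. At 13 dpp same-numbered libraries share part of a title code (F60 or F64), whose meaning is not given in the sources used here. No block was used in the reported fits, and the blocked 13 dpp values stand beside them.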

Additional observations from a re-analysis of the deposited data

Results flagged for a closer look

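The genotype difference changed between ages by a test of that change itself for each of the 3 genes in 2 intervals. From 0 to 9 dpp the log2 change of the genotype difference was -1.35 for Tdrd1, -1.36 for Tdrd9 and -2.71 for Rnf17. This interval holds the 9 dpp contrast through which the genes could be named, so it is not independent evidence, and leaving out 1 library ended the call in 3 of 9 fits for Tdrd1, 8 of 9 for Tdrd9 and 2 of 9 for Rnf17. Both 9 dpp KO libraries carry the same animal code. From 21 dpp to adults it was 1.89 for Tdrd1, 2.66 for Tdrd9 and 3.89 for Rnf17, that is, the KO deficit was smaller in adults than at 21 dpp. The call for Tdrd1 in the second interval was lost in 6 of 8 fits that left out 1 library (adjusted p up to 0.0661), and those for Tdrd9 and Rnf17 were kept in 8 of 8. No group held 4 libraries, so single libraries were not screened as outliers.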

How the results depend on the processing

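At 21 dpp and in adults the falls of Tdrd1, Tdrd9 and Rnf17 kept their direction and their calls under every alternative run, as did the falls from 0 to 9 dpp in either genotype. The smallest library, a wild type of 13 dpp, holds 3550217 counts, and the part of depth in the missed calls at that age was not tested. Where a value below differs from the reported one, the cause was not tested.

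At 0 dpp Rnf17 passed the threshold with DESeq2 (0.66), with no filter on low counts (0.67) and with the replicate block (0.69), while the genes called over the table numbered 696 with DESeq2, 1273 with no filter, 1313 with the block and 44 in 1 fit over all libraries, against 312. At 9 dpp Tdrd9 passed with DESeq2 (-1.13), with no filter (-1.13), with the replicate block (-1.22) and with wild-type replicates 1 and 2 alone (-1.24). Tdrd1 no longer passed in the fit over all libraries (-1.41) or with the KO libraries summed (-1.42), nor did Rnf17 with them summed (-2.06). Genes called at 9 dpp numbered 504 with DESeq2, 225 with no filter, 580 with the block, 585 with wild-type replicates 1 and 2 and 0 with the KO libraries summed, against 65.

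At 13 dpp all 3 genes passed under 4 alternatives. Tdrd1, Tdrd9 and Rnf17 were at -3.66, -3.58 and -4.30 with DESeq2, at -3.61, -3.53 and -4.27 with no filter, at -4.14, -3.80 and -4.75 with the replicate block and at -3.77, -3.68 and -4.45 in the fit over all libraries. Genes called there numbered 25 with RLE size factors, 25 with library totals, 25 with a minimum of 10 counts, 267 with DESeq2, 430 with no filter, 490 with the block and 749 in the fit over all libraries, against 16. At 21 dpp library totals gave 2170 calls against 5654. There the replicate numbers, crossed after seeing the data, gave 7771 calls as a block. In all, the block changed the call of Rnf17 at 0 dpp, of Tdrd9 at 9 dpp and of the 3 genes at 13 dpp.

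In wild types from 13 to 21 dpp Tdrd9 passed with DESeq2 (2.44) and no filter (2.49), Rnf17 did not with library totals (2.37), and 1144 and 1575 genes were called with DESeq2 and no filter against 547. From 21 dpp to adults Tdrd1 turned to -0.44 with library totals, and Tdrd9 passed with DESeq2 (0.91) and no filter (0.88). In KO animals from 13 to 21 dpp Tdrd1, Tdrd9 and Rnf17 passed with library totals (-2.65, -2.86 and -1.96) and no filter (-2.23, -2.48 and -1.54), and 2250 and 3293 genes were called with DESeq2 and no filter against 1335. From 21 dpp to adults in KO animals library totals gave 2714 calls against 4306. In the interaction of 0 and 9 dpp Tdrd9 did not pass with RLE (-1.32), and DESeq2 called 1031 genes against 249. In that of 13 and 21 dpp the 3 genes passed with library totals (-5.72, -5.10 and -4.32) and DESeq2 (-5.56, -5.03 and -4.19), with 666 and 971 genes called against 321. In that of 21 dpp and adults Tdrd1 did not pass with RLE (1.69).

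Of the ratios, Tdrd9 to Ddx4 did not pass with a pseudocount of 0.1 CPM (0.69) or without adults (0.54), Tdrd1 to Ddx4 turned to 0.052 with that pseudocount and Rnf17 to Ddx4 to -0.022 without adults. Tdrd9 to Tdrd1 kept its direction and its side of 0.05 under every alternative run.

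Leaving out 1 library at a time, the genotype difference ranged at 0 dpp from -0.22 to 0.067 for Tdrd1, turning to 0.067 without KO replicate 2, and from 0.41 to 0.99 for Rnf17, with 206 to 791 genes called. At 9 dpp it ranged from -1.52 to -1.33 for Tdrd1, -1.26 to -0.99 for Tdrd9 and -2.18 to -1.98 for Rnf17, with 0 to 585 genes called, 0 without either KO library and 585 without wild-type replicate 3. At 13 dpp it ranged from -5.67 to -2.89, -5.18 to -2.85 and -6.11 to -3.55, with 90 to 251 called, and at 21 dpp 2524 to 5985 genes were called. In wild types from 13 to 21 dpp the ranges were 2.71 to 3.57 for Tdrd1, 1.88 to 3.24 for Tdrd9 and 2.40 to 2.69 for Rnf17 with 25 to 1043 called, and from 21 dpp to adults -0.23 to 0.63 for Tdrd1, turning without wild-type 21 dpp replicate 2, and 0.61 to 0.97 for Tdrd9. In KO animals from 13 to 21 dpp they were -3.13 to -0.35, -3.33 to -1.01 and -2.42 to 0.15, the last turning without KO 13 dpp replicate 1, with 892 to 2149 called, and from 21 dpp to adults 1.72 to 2.02 for Tdrd1 with 2232 to 3849 called. The interaction of 0 and 9 dpp ranged from -1.50 to -1.19, -1.56 to -1.14 and -3.04 to -2.45 with 0 to 730 called, and that of 13 and 21 dpp from -6.34 to -3.60, -5.80 to -3.50 and -4.98 to -2.44 with 1 to 432 called. For 21 dpp and adults that of Tdrd1 ranged from 1.24 to 2.12. Tdrd1 to Ddx4 ranged from -0.11 to 0.022, turning to 0.0023 without wild-type 13 dpp replicate 1 and to 0.022 without KO 21 dpp replicate 2, and Tdrd9 to Ddx4 from 0.65 to 0.78.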
